A study of Mus musculus with 12 samples.

Results

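The aryl hydrocarbon receptor (AHR) and its best-known target genes were followed in mouse C2C12 myoblasts depleted of KEAP1, CCNF or both. These genes are Ahr, Arnt, Ahrr, Tiparp, Cyp1a1, Cyp1a2 and Cyp1b1, which are 7 of the 54532 genes in the deposited table and were found there by gene symbol. They were selected on the difference of siKEAP1 from siCONTROL, in which Cyp1a1 was the largest rise among genes with a mean log2 CPM (counts per 1000000) of at least 1, so every value of siKEAP1 against siCONTROL is given for them as a description, without a test. Of the 7 genes, 6 passed the filter on low counts, which kept 15122 genes in all, and Cyp1a2 did not.

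AHR is a receptor of the bHLH-PAS family that waits in the cytosol with HSP90 and p23 until it binds a ligand, such as a planar aromatic pollutant or a product of tryptophan. It then enters the nucleus, pairs with ARNT and binds xenobiotic response elements near its target genes. Among these are the genes of the CYP1 cytochrome P450 enzymes, which oxidize aromatic compounds, and those of AHRR and TIPARP, which act back on AHR as inhibitors. NRF2, the transcription factor that KEAP1 holds in check, binds antioxidant response elements instead, and some genes of drug metabolism are known targets of both factors.

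C2C12 is an established mouse myoblast line that forms myotubes when serum is withdrawn. The groups are named for their siRNA: siCONTROL is the control, siKEAP1 targets Keap1, siCCNF targets Ccnf and siKEAP1/siCCNF combines the last pair. Cells were given siRNA at 30 nM and were taken 48 h later, with 3 biological replicates in each of the 4 groups. KEAP1 is the substrate adaptor that targets NRF2 for degradation, and CCNF is a substrate adaptor of an SCF ubiquitin ligase that acts in the cell cycle. The labels name no added AHR ligand in any group. Whether 30 nM was the total or the dose of each siRNA in the double depletion is not given in the sources used here. Poly(A) RNA was sequenced, and library totals lay between 18464209 and 37743198 counts.

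Keap1 mRNA was 87.8 ± 3.05 counts per 1000000 (CPM) in siCONTROL, 12.6 ± 0.279 in siKEAP1, 85.1 ± 4.35 in siCCNF and 24.1 ± 2.56 in siKEAP1/siCCNF (mean ± SD, n = 3). Keap1 was 0.93 higher on the log2 scale in siKEAP1/siCCNF than in siKEAP1 (adjusted p = 1.07e-06, edgeR), a shallower depletion when both siRNAs were used. Ccnf mRNA was 81.1 ± 3.99 CPM in siCONTROL, 59.4 ± 4.83 in siKEAP1, 20.5 ± 0.778 in siCCNF and 24.5 ± 1.01 in siKEAP1/siCCNF. All 6 myoblast markers examined (Myod1, Myf5, Cdh15, Des, Pax7 and Itga7) passed the filter, and their summed FPKM was 393.3 to 471.2 in siCONTROL, 217.1 to 226 in siKEAP1, 173.4 to 177.5 in siCCNF and 168.5 to 194.7 in siKEAP1/siCCNF. All 6 fell in siCCNF and in siKEAP1/siCCNF against siCONTROL. In these comparisons 25.5% and 23.6% of all genes were lower, and 22.5% and 20.6% higher. Of 6 myotube markers 4 passed, with a summed FPKM of 26.2 to 66.45 in siCONTROL, 0.979 to 1.23 in siKEAP1, 5.79 to 9.4 in siCCNF and 1.7 to 2.04 in siKEAP1/siCCNF; against siCONTROL 3 fell in siCCNF and 4 in siKEAP1/siCCNF. Of 4 fibroblast markers, Dcn and Pdgfra passed, and both rose in the groups that received siCCNF, where the summed FPKM was 13.9 to 18.9 against 4.92 to 7.57 in siCONTROL. Thy1, another marker of fibroblasts, was at 0 in both of these groups and in siCONTROL. None of the adipocyte or hepatocyte markers passed the filter. The part of these shifts in the results below was not tested, and in bulk RNA a change in the number of cells of a type cannot be told apart from a change in RNA per cell.

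In siCONTROL replicate 1 and siKEAP1/siCCNF replicate 3, the deviation of each gene from its group mean followed gene length more closely than in the other libraries (r = -0.305 and -0.276 across genes). Replicate 1 was the lowest siCONTROL library for each of the 6 genes that passed the filter. The share of all genes with this library lowest was not counted, so nothing particular to the 6 is read from this. Results are given without these libraries where leaving them out changed a call or moved a value strongly.

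Upstream sequences are shown for 4 of the genes, because Cyp1a1, Cyp1b1 and Ahrr are AHR targets with unlike values in these cells and Arnt encodes the partner of AHR. Promoter sequences from RefSeq, build GRCm38.p6, were used for 6 of the 7 genes, and that of Ahr was not analysed here. Each window is the 250 bases before the RefSeq start site, written 5′ to 3′ along the gene's strand. Capitals mark the core of the xenobiotic response element, GCGTG on either strand, and in Arnt also the core of the antioxidant response element, TGACNNNGC on either strand. The window of Cyp1a1 is chr9:57697363-57697612, plus strand, and lies within the first intron of a longer annotated transcript of this gene. That of Cyp1b1 is chr17:79715062-79715311, minus strand. That of Ahrr is chr13:74292332-74292581, minus strand, and that of Arnt is chr3:95434140-95434389, plus strand.
Cyp1a1: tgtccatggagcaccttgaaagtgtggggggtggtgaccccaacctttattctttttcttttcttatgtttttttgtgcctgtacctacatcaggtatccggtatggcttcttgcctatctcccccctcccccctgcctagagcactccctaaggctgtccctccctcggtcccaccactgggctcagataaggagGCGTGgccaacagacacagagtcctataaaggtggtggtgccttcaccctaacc
Cyp1b1: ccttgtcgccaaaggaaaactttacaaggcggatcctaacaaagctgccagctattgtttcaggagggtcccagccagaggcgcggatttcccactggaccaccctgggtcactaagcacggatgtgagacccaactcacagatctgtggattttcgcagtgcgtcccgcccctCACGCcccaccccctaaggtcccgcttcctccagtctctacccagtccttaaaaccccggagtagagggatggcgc
Ahrr: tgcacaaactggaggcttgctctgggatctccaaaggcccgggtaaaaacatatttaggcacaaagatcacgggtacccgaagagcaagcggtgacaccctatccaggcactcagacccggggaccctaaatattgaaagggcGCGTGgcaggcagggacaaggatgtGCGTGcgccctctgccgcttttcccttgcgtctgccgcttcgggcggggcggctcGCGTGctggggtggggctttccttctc
Arnt: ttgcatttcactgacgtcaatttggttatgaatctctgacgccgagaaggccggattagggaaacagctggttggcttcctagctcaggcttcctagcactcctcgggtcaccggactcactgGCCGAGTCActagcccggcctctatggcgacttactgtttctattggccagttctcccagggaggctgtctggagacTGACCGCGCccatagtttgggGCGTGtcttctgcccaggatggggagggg

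Over 300 bases, which add the first 50 transcribed bases, Cyp1a1 held 1 GCGTG with its first base at position -54 from the start site. Cyp1b1 held 1 at -76 and Tiparp 1 at -170, both on the opposite strand, and Arnt held 1 at -29. Ahrr held 3, at -107, -82 and -27, and the last of these was within the longer motif TNGCGTG, which contains GCGTG. Cyp1a2 held none. GCGTG is short and was present in 32.4% of the 32817 promoters of the same length, and TNGCGTG in 5.06%. TGACNNNGC was found in 12.4% of promoters, and among the 6 windows only in that of Arnt, at -127 on the opposite strand and at -50. These are matches of letters and not measured binding sites, and elements outside the windows were not searched.

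The messages of this pathway stood at very different levels in control myoblasts. On the FPKM scale, which divides by transcript length, siCONTROL cells had 42.3 ± 5.97 for Cyp1b1, 10.4 ± 1.04 for Arnt, 7.43 ± 0.730 for Tiparp, 3.28 ± 0.878 for Ahr, 0.576 ± 0.139 for Ahrr and 0.379 ± 0.226 for Cyp1a1 (mean ± SD, n = 3), and Cyp1a2 had no read. The 3 siCONTROL libraries of each gene in this order were apart from those of the next, except that Ahrr and Cyp1a1 overlapped. After siKEAP1 the order became Cyp1b1 (19.3 ± 0.936), Cyp1a1 (17.9 ± 0.647), Ahr (12.6 ± 1.31), Tiparp (9.96 ± 0.0985), Arnt (7.26 ± 0.320) and Ahrr (0.572 ± 0.0934). Cyp1b1 and Cyp1a1 overlapped there, and the other neighbours did not. With siCCNF the order was that of siCONTROL and no neighbours overlapped, with Cyp1b1 at 93.2 ± 5.05 and Cyp1a1 at 1.12 ± 0.200 FPKM. It was also the order in siKEAP1/siCCNF, where Tiparp (11.9 ± 1.21) and Ahr (10.5 ± 1.48) overlapped.

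Ahr encodes the receptor itself (ENSMUSG00000019256, chr12:35497974-35535038, minus strand). Its level was 14.1, 23.8 and 23.2 CPM in the siCONTROL libraries, 68.8, 80.3 and 84.4 in siKEAP1, 54.8, 52.4 and 55.7 in siCCNF and 71.4, 69.2 and 54.3 in siKEAP1/siCCNF. Every depleted library was above every control library. Against siCONTROL the log2 difference was 1.94 (standard error, SE, 0.169) in siKEAP1, given as a description. Ahr rose by 1.42 in siCCNF (SE 0.167, adjusted p = 1.44e-05, edgeR, Benjamini-Hochberg adjustment over all genes tested) and by 1.68 in siKEAP1/siCCNF (adjusted p = 4.03e-06, edgeR). The double depletion differed from siCCNF by 0.26 (95% interval -0.08 to 0.60, adjusted p = 0.432, edgeR) and from siKEAP1 by -0.26 (-0.60 to 0.08, adjusted p = 0.188, edgeR). Without siCONTROL replicate 1 and siKEAP1/siCCNF replicate 3, the difference from siCCNF was 0.37 and was called (adjusted p = 0.00273, edgeR). Without siCONTROL replicate 1 alone, the difference of -0.26 from siKEAP1 was called (adjusted p = 0.0413, edgeR).

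Arnt encodes the nuclear partner of AHR, which HIF proteins also use (ENSMUSG00000015522, chr3:95434388-95497240, plus strand). Its level was 74.8, 91.3 and 85.5 CPM in siCONTROL, 61.0, 58.0 and 55.9 in siKEAP1, 149, 154 and 158 in siCCNF and 132, 128 and 113 in siKEAP1/siCCNF. The 4 groups did not overlap, and siKEAP1 was the lowest. Against siCONTROL Arnt was at -0.52 after siKEAP1 (SE 0.082, description), whereas it rose by 0.87 in siCCNF (adjusted p = 1.85e-06, edgeR) and by 0.57 in siKEAP1/siCCNF (adjusted p = 8.94e-05, edgeR). It was higher in siKEAP1/siCCNF than in siKEAP1 by 1.09 (adjusted p = 2.22e-07, edgeR). Between siKEAP1/siCCNF and siCCNF, which share no library with the comparison that chose the genes, Arnt fell by 0.31 (95% interval -0.48 to -0.13, adjusted p = 0.0446, edgeR). This call was lost in 15 of 22 alternatives, in which the difference lay between -0.35 and -0.25 and the adjusted p between 0.0534 and 0.153 (edgeR or limma), among them the removal of any library but siCONTROL replicates 1 and 2.

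Ahrr, the first of 2 inhibitors of AHR, encodes a repressor that competes with AHR for ARNT (ENSMUSG00000021575, chr13:74211118-74292331, minus strand). It stood at 4.12, 5.53 and 6.79 CPM in siCONTROL and at 4.51, 5.47 and 6.27 in siKEAP1, which overlapped, and at 27.5, 25 and 27.8 in siCCNF and 25.7, 22.2 and 20.5 in siKEAP1/siCCNF. The log2 difference of siKEAP1 from siCONTROL was -0.01 (SE 0.176). Ahrr rose by 2.29 in siCCNF (adjusted p = 1.72e-07, edgeR) and by 2.06 in siKEAP1/siCCNF (adjusted p = 5.57e-07, edgeR), and it was 2.07 higher in siKEAP1/siCCNF than in siKEAP1 (adjusted p = 3.11e-07, edgeR). The double depletion differed from siCCNF by -0.23 (95% interval -0.54 to 0.08, adjusted p = 0.439, edgeR). Among the 6 genes, Ahrr had the largest rise in siCCNF.

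Tiparp, the other inhibitor, encodes an ADP-ribosyltransferase that is induced by AHR and modifies it (ENSMUSG00000034640, chr3:65528410-65555518, plus strand). It was measured at 29.1, 35.3 and 33.5 CPM in siCONTROL, 44.0, 43.3 and 43.4 in siKEAP1, 51.5, 60.2 and 58.0 in siCCNF and 53.2, 57.1 and 46.2 in siKEAP1/siCCNF. All depleted libraries lay above the controls, and siKEAP1 was the group closest to them, with a log2 difference of 0.42 (SE 0.096, description). Tiparp rose by 0.79 in siCCNF (adjusted p = 1.65e-05, edgeR) and by 0.68 in siKEAP1/siCCNF (adjusted p = 7.52e-05, edgeR). Its difference between siKEAP1/siCCNF and siKEAP1 was 0.26 (adjusted p = 0.0331, edgeR), a call that was lost on leaving out any 1 of 5 libraries of these 2 groups. Against siCCNF the difference was -0.12 (95% interval -0.32 to 0.09, adjusted p = 0.579, edgeR). The start of Tiparp overlaps 4931440P22Rik, a transcribed pseudogene on the other strand with at most 52 counts in a library. This pseudogene also rose in siCCNF, by 0.87 (adjusted p = 0.0496, edgeR), a call that was lost in 14 alternatives. The transcripts of the 2 genes share 195 sequences of 31 bases, 4.48% of those of Tiparp. No source used here says whether the counting used strand, so reads of this overlap cannot be assigned to 1 of the 2 genes.

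Cyp1a1 encodes the classical AHR-induced monooxygenase of aromatic hydrocarbons (ENSMUSG00000032315, chr9:57687928-57703824, plus strand). Its raw counts were 8, 23 and 33 in siCONTROL, 1047, 1287 and 1127 in siKEAP1, 126, 65 and 124 in siCCNF and 105, 158 and 125 in siKEAP1/siCCNF. Scaled by library size, these are 0.359, 1.25 and 1.59 CPM, then 48.6, 52.1 and 49.4, then 3.59, 2.53 and 3.33, and 4.17, 4.87 and 5.49. The 4 groups did not overlap, with siKEAP1 far above the other 3 and siCONTROL the lowest. The difference that chose the genes was 5.57 on the log2 scale (SE 0.268, 47.7-fold). Among genes with a mean log2 CPM of at least 1, the next rises were those of Ppl (5.53), Gsta2 (5.41) and Ptges (4.94), and among all 15122 genes tested Cyp1a1 ranked 23rd. Without siCONTROL replicate 1 Cyp1a1 was at 5.12, below the values of Ppl and Gsta2 from all 12 libraries.

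CCNF depletion alone also raised Cyp1a1, by 1.60 (SE 0.304, 95% interval 0.94 to 2.26, adjusted p = 0.000766, edgeR), and the double depletion by 2.20 (SE 0.296, 1.56 to 2.84, adjusted p = 5.09e-05, edgeR). Both comparisons share the siCONTROL libraries with the comparison that chose the genes. Without siCONTROL replicate 1, which had 8 counts, the values were 1.16 and 1.75 and both stayed past the threshold (adjusted p = 0.000443 and 1.05e-05, edgeR). Cyp1a1 fell by 3.37 in siKEAP1/siCCNF against siKEAP1 (SE 0.215, adjusted p = 4.92e-08, edgeR). In CCNF-depleted cells the addition of siKEAP1 made a difference of 0.60 (SE 0.232, 95% interval 0.10 to 1.11, adjusted p = 0.177, edgeR), where the 3 siKEAP1/siCCNF libraries lay above the 3 siCCNF libraries. This difference was past the threshold in 4 of 21 alternatives, among them DESeq2 (0.61, adjusted p = 0.0283) and the fit without siCONTROL replicate 1 (0.59, adjusted p = 0.0178, edgeR).

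Cyp1a2, whose enzyme is typical of liver, lies next to Cyp1a1 in the opposite direction, 4225 bases away (ENSMUSG00000032310, chr9:57676937-57683703, minus strand). It had 4, 1 and 3 counts in siKEAP1 and 0 in the 9 libraries of the other groups. A count of 0 allows up to 3 counts, or 0.0805 to 0.163 CPM in these libraries, for counting error only. These floors hold for 1 library at a time, and the siKEAP1 libraries were at 0.0405 to 0.186 CPM. A difference between groups was not tested for Cyp1a2. The transcripts of Cyp1a1 and Cyp1a2 share 152 sequences of 31 bases, 7.67% of those of Cyp1a2. How the counting treated shared reads is not given in the sources used here, and whether the 8 counts came from Cyp1a1 was not tested.

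Cyp1b1 encodes the CYP1 enzyme of mesenchymal and steroid-producing cells (ENSMUSG00000024087, chr17:79706953-79715041, minus strand). It was the most abundant message of the 7 in each group, at 183, 239 and 234 CPM in siCONTROL, 95.3, 105 and 98.0 in siKEAP1, 451, 503 and 494 in siCCNF and 450, 473 and 381 in siKEAP1/siCCNF. In contrast to Cyp1a1 it was lower after siKEAP1, by -1.14 on the log2 scale (SE 0.106, description), with no overlap between the groups. It rose by 1.14 in siCCNF (adjusted p = 1.66e-06, edgeR) and by 0.99 in siKEAP1/siCCNF (adjusted p = 6.45e-06, edgeR). Against siKEAP1 the double depletion was higher by 2.13 (adjusted p = 9.33e-09, edgeR), and against siCCNF it differed by -0.15 (95% interval -0.37 to 0.07, adjusted p = 0.5, edgeR). No transcript sequence of 31 bases was shared between Cyp1b1 and any other annotated gene.

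**Figure D1:**
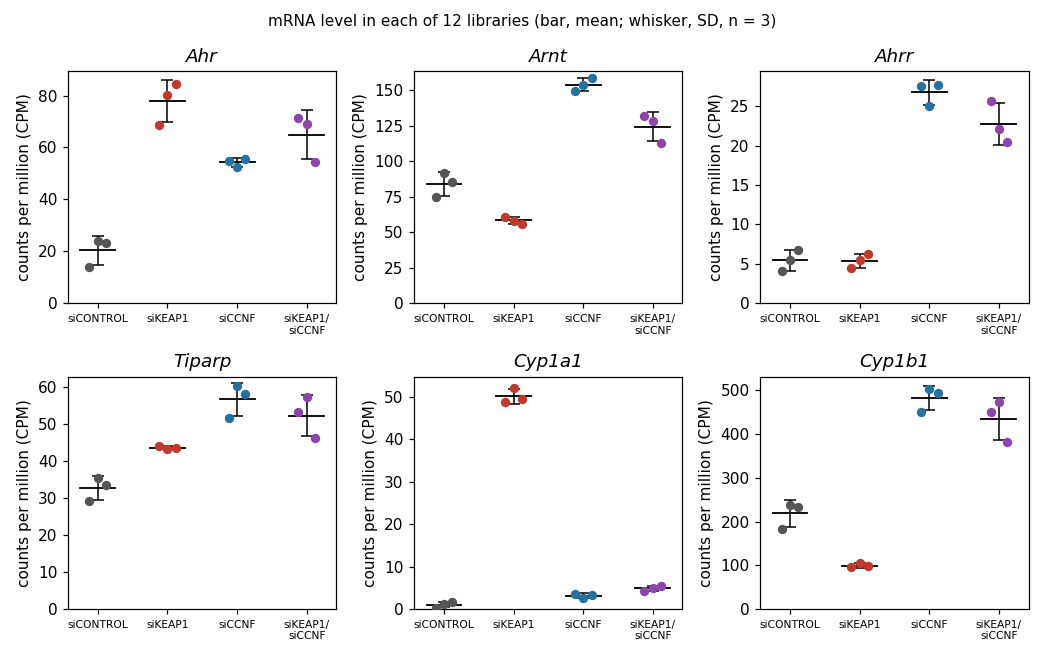
Level of each of the 6 genes that passed the filter, in CPM (linear axes from 0), with 1 point for each library, a bar for the mean and a whisker for the SD of 3 libraries. Cyp1a1 is high in siKEAP1 alone (48.6 to 52.1 CPM, against 2.53 to 5.49 with siCCNF present), whereas Ahrr, Arnt and Cyp1b1 are high in both groups that received siCCNF.

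Read by comparison, siCCNF against siCONTROL called each of the 6 genes that passed the filter higher, where 22.5% of all genes tested were higher and 25.5% lower. Their median log2 difference was 1.28, and that of all genes tested was 0.0134. In siKEAP1/siCCNF against siCONTROL it was again 6 higher (20.6% of all genes were higher and 23.6% lower), with a median of 1.34. These 2 comparisons share their control libraries with each other and with the comparison that chose the genes. In siKEAP1/siCCNF against siKEAP1, Arnt, Ahrr, Tiparp and Cyp1b1 were higher and Cyp1a1 was lower (24.1% of all genes were higher and 26.9% lower), with a median of 0.677. That comparison shares the siKEAP1 libraries with the one that chose the genes.

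In siKEAP1/siCCNF against siCCNF, which shares no library with it, edgeR called 0 of the 6 genes higher and 1, Arnt, lower, against 3.00% and 2.19% of all genes. At an unadjusted p under 0.05, 1 was higher (Cyp1a1) and 1 lower, and DESeq2 called these same 2 genes after adjustment. The median of the 6 was -0.133, and that of all genes 0.00318. For siKEAP1 against siCONTROL, Cyp1a1 and Ahr were over 2-fold higher and Cyp1b1 over 2-fold lower. Over all genes, 8.48% were over 2-fold higher and 4.87% over 2-fold lower, and nothing is read from this comparison because it chose the genes.

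When the siKEAP1 difference in control cells was subtracted from that in CCNF-depleted cells, the result was -4.97 for Cyp1a1, -1.68 for Ahr, -0.53 for Tiparp, -0.22 for Ahrr, 0.22 for Arnt and 0.99 for Cyp1b1 on the log2 scale. These values contain the comparison that chose the genes and are not tested. For Ahrr the sign turned, to 0.03, without siCONTROL replicate 1 and siKEAP1/siCCNF replicate 3. Cyp1a1 was at 5.57 in control cells and at 0.60 in CCNF-depleted cells, Ahr at 1.94 and 0.26, and Cyp1b1 at -1.14 and -0.15.

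**Figure D2:**
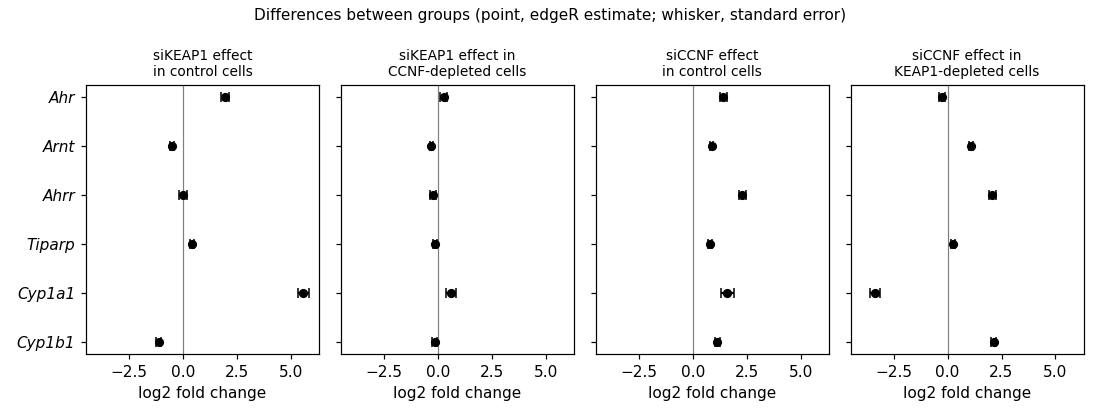
Log2 fold changes of the 6 genes (points, edgeR estimates from 12 libraries; whiskers, standard errors) for siKEAP1 in control cells, siKEAP1 in CCNF-depleted cells, siCCNF in control cells and siCCNF in KEAP1-depleted cells. In the second panel the values lie between -0.31 and 0.60, and Cyp1a1 is at 1.60 in the third panel and at -3.37 in the fourth.

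The ratio of the receptor to its partner and its inhibitor differed between the groups. The FPKM of Ahr over that of Arnt was 0.244 to 0.353 in siCONTROL, 1.47 to 1.96 in siKEAP1, 0.443 to 0.477 in siCCNF and 0.624 to 0.703 in siKEAP1/siCCNF, with no overlap between groups. Ahr over Ahrr was 5.23 to 6.59 in siCONTROL, 20.6 to 23.4 in siKEAP1, 3.05 to 3.21 in siCCNF and 4.05 to 4.79 in siKEAP1/siCCNF, again without overlap and with siCCNF below the control. Cyp1a1 over Cyp1b1 was 0.00361 to 0.0125 in siCONTROL, 0.916 to 0.939 in siKEAP1, 0.00925 to 0.0147 in siCCNF and 0.017 to 0.0265 in siKEAP1/siCCNF. siCONTROL and siCCNF overlapped in this last ratio. With 3 libraries against 3 an exact permutation test cannot go below p = 0.1, so the ratios are given without one. Those of siKEAP1 and siCONTROL also hold the values that chose the genes, and nothing is read from their difference.

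**Figure D3:**
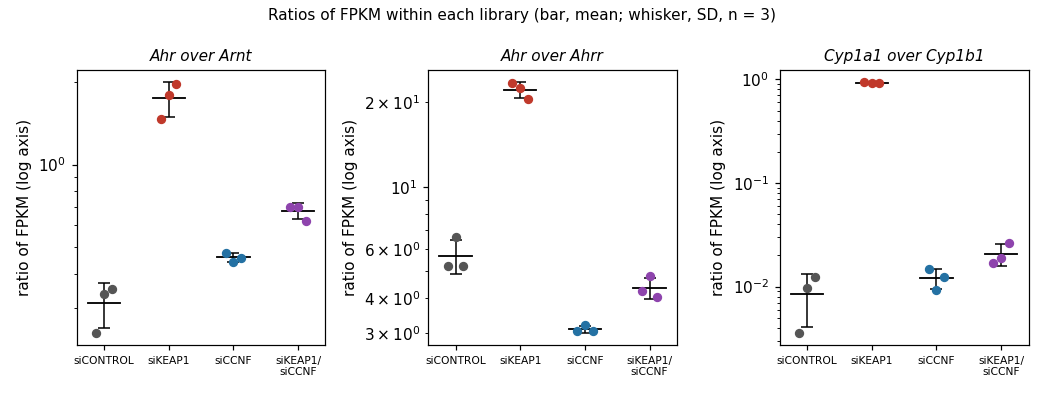
Ratios of FPKM within each library on log axes for Ahr over Arnt, Ahr over Ahrr and Cyp1a1 over Cyp1b1, with 1 point for each library, a bar for the mean and a whisker for the SD of 3 libraries. siKEAP1 has the highest ratio in each panel (means 1.74, 22.2 and 0.928), given as a description because its difference from siCONTROL chose the genes.

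Genes that AHR is known to induce beyond these 7 were taken from a list of 16, of which 15 were tested. Many of them are also induced by NRF2. After siKEAP1, 10 of them were over 2-fold higher and 2 over 2-fold lower than in siCONTROL (8.48% and 4.87% of all genes). Their median log2 difference was 2.43, and that of all genes was -0.0122. This comparison chose the 7 genes, and the list was set with earlier results known, so these values are a description. The highest was Aldh3a1, an aldehyde dehydrogenase, with 59.5 ± 14.2 CPM in siCONTROL and 1189 ± 71.3 in siKEAP1. It was followed by Gsta1, a glutathione transferase, at 4.0, Serpinb2, a protease inhibitor, at 3.76, and Nqo1, a quinone reductase, at 2.82. Gsta1, Ugt1a6a and Ugt1a6b have close paralogs, and their counts are uncertain where reads are shared. Fgf21 (-1.89) and Socs2 (-1.26), which encode a hormone and a suppressor of cytokine signals, were the 2 lower ones.

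Of the same 15 genes, 1 was called higher and 7 lower in siCCNF against siCONTROL, where 22.5% of all genes were higher and 25.5% lower, with a median of -0.405. Xdh, which encodes xanthine dehydrogenase, rose by 1.5 (adjusted p = 0.00112, edgeR), as the 6 genes above did. Areg, encoding the growth factor amphiregulin, fell by 1.76 (adjusted p = 1.13e-05, edgeR), Gsta1 fell by 1.64 (adjusted p = 0.0201, edgeR) and Nqo1 fell by 0.87 (adjusted p = 1.76e-07, edgeR). The libraries of Gsta1 overlapped, and its call was lost in 5 of 22 alternatives, among them those without siCONTROL replicate 2 (-0.74, adjusted p = 0.178, edgeR) and without siCCNF replicate 1 (-1.42, adjusted p = 0.0745, edgeR). In siKEAP1/siCCNF against siCONTROL, 6 of the 15 were higher and 4 lower (20.6% and 23.6% of all genes), with a median of 0.366.

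Within CCNF-depleted cells, siKEAP1 raised 4 of the 15 genes and lowered 1, Nfe2l2, which encodes NRF2 (3.00% and 2.19% of all genes), with a median of 0.414. The call of Nfe2l2 was lost without any 1 of the siCCNF libraries or without siKEAP1/siCCNF replicate 1 or 2 (adjusted p = 0.0528 to 0.0843, edgeR). Those that rose were Gsta1 (3.01, adjusted p = 0.00183), Ugt1a6b (2.42, adjusted p = 0.0104), Nqo1 (2.31, adjusted p = 3.6e-10) and Aldh3a1 (1.64, adjusted p = 2.4e-05, all edgeR). Cyp1a1, at 0.60, was below each of these 4 values and did not pass the threshold in the same comparison. Nqo1 was at 30.8 ± 0.776 CPM in siCCNF and at 152 ± 9.0 in siKEAP1/siCCNF, and in siKEAP1 it was at 397 ± 16.2 (SD, n = 3). Serpinb2 (0.30, adjusted p = 0.783), Xdh (0.41, adjusted p = 0.492), Areg (0.61, adjusted p = 0.135) and Ereg (0.39, adjusted p = 0.127, all edgeR) did not pass. In siKEAP1/siCCNF against siKEAP1, 9 of the 15 were lower and 2 higher (26.9% and 24.1% of all genes). Areg fell by 3.77 (adjusted p = 6.91e-09), Serpinb2 by 3.39 (adjusted p = 4.55e-06), Aldh3a1 by 3.39 (adjusted p = 3.11e-09) and Gsta1 by 2.63 (adjusted p = 2.39e-05, all edgeR), beside the 3.37 of Cyp1a1. Ugt1a6b differed by -0.06 (SE 0.403, adjusted p = 0.91, edgeR), at 1.38 ± 0.315 CPM in siKEAP1 and 1.33 ± 0.404 in the double depletion.

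**Figure D4:**
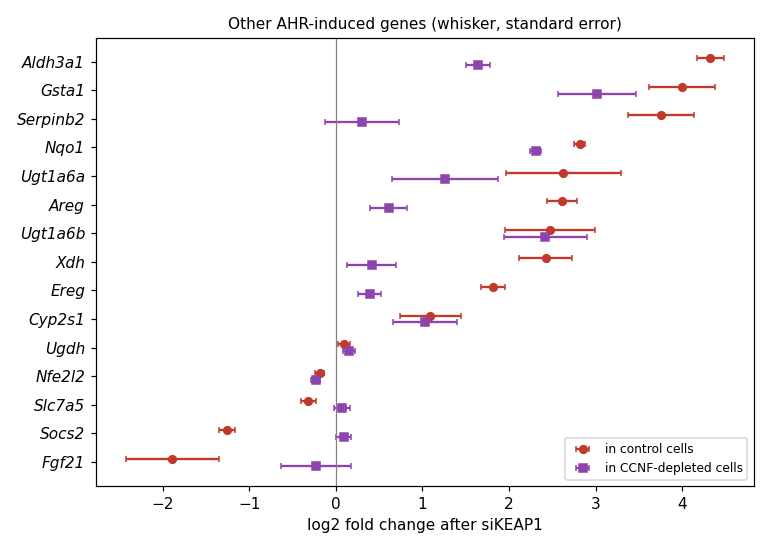
Log2 fold change after siKEAP1 for the 15 other AHR-induced genes that were tested, in control cells (circles) and in CCNF-depleted cells (squares), with standard errors as whiskers. Aldh3a1 is at 4.32 and 1.64, Serpinb2 at 3.76 and 0.30, and Ugt1a6b at 2.47 and 2.42.

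Among the genes of the proteins that hold AHR in the cytosol, Hsp90ab1, which encodes the constitutive HSP90, fell from 2595 ± 153 CPM in siCONTROL to 1175 ± 19.3 in siCCNF, by 1.14 (adjusted p = 1.84e-08, edgeR), and was 1526 ± 65.4 in siKEAP1/siCCNF. It was 3429 ± 42.7 in siKEAP1, and the double depletion fell below this by 1.17 (adjusted p = 1.14e-08, edgeR). Src rose in siCCNF by 0.72 (adjusted p = 1.59e-06, edgeR). Hsp90ab1 was also higher in siKEAP1/siCCNF than in siCCNF (0.38, adjusted p = 0.00288, edgeR).

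Of 13 other genes of the bHLH-PAS family, 9 were tested. In siCCNF 3 rose and 2 fell, in siKEAP1/siCCNF against siCONTROL 3 rose and 1 fell, and the double depletion had 1 higher gene against siCCNF and 3 higher and 3 lower genes against siKEAP1. The shares over all genes were 22.5% higher and 25.5% lower in siCCNF and 20.6% and 23.6% in siKEAP1/siCCNF against siCONTROL. They were 3.00% and 2.19% against siCCNF and 24.1% and 26.9% against siKEAP1. The counts against siCONTROL lay near the background. Npas3 (2.66, adjusted p = 0.000168, edgeR) and Npas4 (2.20, adjusted p = 0.000232, edgeR), 2 transcription factors of neurons, rose in siCCNF from low levels, with 10 and 31 counts over the 3 siCONTROL libraries. Arnt2, a close relative of Arnt, was at 17.8 ± 1.39 CPM in siCONTROL, 37.0 ± 0.744 in siKEAP1, 12 ± 0.513 in siCCNF and 15.4 ± 0.988 in siKEAP1/siCCNF. Arnt2 fell by 0.57 in siCCNF (adjusted p = 0.000103, edgeR), by 1.26 in siKEAP1/siCCNF against siKEAP1 (adjusted p = 5.88e-08, edgeR), and was 0.37 higher in siKEAP1/siCCNF than in siCCNF (adjusted p = 0.0225, edgeR). The last call was lost without any 1 of the siCCNF libraries or without siKEAP1/siCCNF replicate 2 (adjusted p = 0.0559 to 0.119, edgeR).

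All 10 coregulators and ubiquitin ligases of AHR that were listed were tested. In siCCNF 1 rose, in siKEAP1/siCCNF 1 fell against siCONTROL and 2 fell against siKEAP1, fewer than the shares of all genes above. These counts varied with the processing, and over 22 alternatives 0 to 3 were higher and 0 to 5 lower in siCCNF, and 1 to 5 were lower against siKEAP1. Between siKEAP1/siCCNF and siCCNF, edgeR called 0 of them, also at an unadjusted p under 0.05, and DESeq2 called 0. Their log2 differences from siCONTROL lay between -0.34 and 0.43 in siCCNF and between -0.59 and 0.35 in the double depletion. Of 10 enzymes that turn tryptophan into kynurenines, some of which are AHR ligands, 4 were tested. Against siCONTROL 2 fell in siCCNF and 1 in siKEAP1/siCCNF, where 25.5% and 23.6% of all genes were lower. With 4 genes these counts can hardly be read against such shares. In the other 2 comparisons edgeR called 0, also at an unadjusted p under 0.05, and DESeq2 called 0. Ido1 and Tdo2, which start this pathway, did not pass the filter, and Ido2, a relative of Ido1, did, with 17 to 29 counts over the 3 libraries of a group and a log2 difference of -0.69 in siCCNF (95% interval -2.07 to 0.69, adjusted p = 0.395, edgeR).

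The electron donors of P450 enzymes and the first enzyme of heme synthesis were all tested. Against siCONTROL 2 of the 5 rose and 2 fell in siCCNF, and 3 rose and 1 fell in siKEAP1/siCCNF. With 5 genes these counts can hardly be read against the shares of all genes (22.5% and 25.5%, then 20.6% and 23.6%). The double depletion had 3 higher and 0 lower against siCCNF, where 3.00% of all genes were higher and 2.19% lower. Against siKEAP1 it had 1 higher and 3 lower (24.1% and 26.9% of all genes). Por, the reductase that passes electrons to P450 enzymes, fell by 0.60 in siCCNF (adjusted p = 5.32e-06, edgeR), where Cyp1b1 rose, and was 0.41 higher in siKEAP1/siCCNF than in siCCNF (adjusted p = 0.00235, edgeR). Alas1, the first enzyme of heme synthesis, rose by 0.56 in siCCNF (adjusted p = 4.01e-05, edgeR) and by 0.83 in siKEAP1/siCCNF (adjusted p = 1.57e-06, edgeR). In siKEAP1/siCCNF against siCCNF Alas1 was 0.27 higher (adjusted p = 0.0497, edgeR), a call that was lost in 15 of 22 alternatives. The count of 3 higher genes in that comparison ran from 2 to 4 over the alternatives.

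Genes next to these loci were read for comparison. Within 50 kb of the 7 genes lie 23 other annotated genes, and 10 of these were tested. Around Cyp1a1, Csk fell by 0.73 in siCCNF (adjusted p = 2.41e-06, edgeR), Edc3 rose by 0.20 (adjusted p = 0.0159, edgeR) and Clk3 differed by -0.06 (adjusted p = 0.483, edgeR). After siKEAP1 they were at 0.04, 0.44 and 0.03. Near Arnt, the cathepsin genes Ctss and Ctsk rose in siCCNF by 1.84 (adjusted p = 0.023) and 1.91 (adjusted p = 0.00819, edgeR), each with at most 40 counts in a library. The call of Ctss was lost without siCONTROL replicate 1 or 2 or siCCNF replicate 1 (adjusted p = 0.0564 to 0.0962, edgeR). Exoc3, Pdcd6 and Sdha near Ahrr lay between -0.28 and 0.11 in siCCNF, where Ahrr was at 2.29. Rmdn2, near Cyp1b1, rose by 0.58 (adjusted p = 0.000132, edgeR).

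The genes with the pattern most like 3 of the members were sought among 11825 genes with a mean log2 CPM of at least 1, by Pearson's r of log2 CPM over the 12 libraries. The libraries fall into 4 groups, so r mostly compares group means. For Cyp1a1 these were Madd (r = 0.994), Fam102a (0.981), Alcam (0.980) and Nadk (0.978). Alcam, a cell adhesion molecule, stood at 77.4, 278, 119 and 123 CPM in siCONTROL, siKEAP1, siCCNF and siKEAP1/siCCNF, and Nadk, which makes NADP, at 167, 303, 201 and 214. For Ahr they were Fam53b (0.992), Mef2d (0.991), Galnt7 (0.988) and Enpp2 (0.985). Enpp2, the secreted enzyme autotaxin, had 1.38, 17.8, 10.6 and 15.5 CPM in the same order of groups. For Tiparp they were Igf2bp2 (0.981), Baz2a (0.980), 4930402H24Rik (0.979) and Wasl (0.978).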

How the data were processed

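Total RNA of C2C12 cells was poly(A)-selected and sequenced (12 libraries, 4 groups of 3). The authors deposited 1 table with raw read counts per gene and FPKM values (fragments per kilobase, scaled to library size, made by their service provider). The submitters' processing notes name HISAT2 and GRCm39; coordinates in the table matched GENCODE M21 on GRCm38 for 98.3% of genes, and GRCm38 is used here. The counting tool and annotation are not given in the sources used here. The labels and the methods also give different serum concentrations. The authors' columns of group means, fold changes and p-values were not used.

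Counts were tested using edgeR 4.0.16 (R 4.3.3): filterByExpr, TMM scaling, and a quasi-likelihood model of 4 group means, with Benjamini-Hochberg adjustment over 15122 genes and calls at an adjusted p under 0.05. Positive log2 values are higher in the group named first. CPM values use TMM-scaled totals (18464209 to 37743198 counts before scaling), and log2 CPM a prior count of 2. Intervals of differences are 95% intervals of the fit, and floors of 3 counts cover counting error only. Alternatives were DESeq2 1.42.0, limma 3.58.1 on log2(FPKM + 1) and log2(FPKM + 0.1), no TMM, no filter beyond 1 count, at least 10 counts in every library, a replicate block, the compared libraries only, removal of the gene length trend, and leaving out each library. Leaving out both libraries with the strongest length trend was added after seeing the data. The fit was tested on simulated data. Replicates are labelled biological.

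The genes and lists were chosen with earlier results of these data known. Named are all 7 genes, the targeted genes, list genes called with over 2-fold change (at most 4 a list and comparison), genes within 50 kb, and the 4 genes most like Cyp1a1, Ahr and Tiparp. Other list genes named, including Por, Alas1, Src, Nfe2l2, Ido1, Ido2 and Tdo2, the over 2-fold genes after siKEAP1, and the 3 rises next to Cyp1a1 were chosen after their values were seen. Promoters came from RefSeq (GRCm38.p6).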

Additional observations from a re-analysis of the deposited data

Results flagged for a closer look

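The effect of siKEAP1 in CCNF-depleted and in control cells was compared by a test of the difference itself (edgeR, adjusted over all genes). It differed for 14 of the 43 tested genes of 5 lists (other AHR-induced genes, bHLH-PAS relatives, coregulators, tryptophan enzymes and P450 electron donors), 3 of them higher and 11 lower in CCNF-depleted cells. Over all 15122 genes, 10.6% were higher and 10.5% lower. The difference contains siKEAP1 against siCONTROL, the comparison that chose the genes above, and the lists were set with earlier results known. For genes named for their rise after siKEAP1, a lower effect in CCNF-depleted cells is therefore partly built in. The counts and adjusted p-values of the list genes are given as a description. The named genes with a lower effect of siKEAP1 in CCNF-depleted than in control cells were Serpinb2 (-3.45, adjusted p = 0.00111), Aldh3a1 (-2.68, adjusted p = 3.26e-06), Xdh (-2.01, adjusted p = 0.00373), Areg (-2.0, adjusted p = 0.000242), Ereg (-1.42, adjusted p = 0.000206), Arnt2 (-0.69, adjusted p = 0.001), Nqo1 (-0.51, adjusted p = 0.000976) and Por (-0.27, adjusted p = 0.0465, all edgeR, log2). For Socs2, which was lower after siKEAP1 in control cells, the difference between the effects was 1.35 (adjusted p = 1.55e-05, edgeR). Gsta1 (-0.99, SE 0.64) and Ugt1a6b (-0.05, SE 0.745), from the same list as Aldh3a1, did not pass the threshold.

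For all 6 myoblast markers the effect of siKEAP1 was higher in CCNF-depleted than in control cells, although their levels were lower in siCCNF than in siCONTROL. The siKEAP1 effect on the 6 lay between -1.73 and -0.41 in control cells and between -0.21 and 0.08 in CCNF-depleted cells. The differences between these effects were Myod1 (1.81, adjusted p = 1.26e-06), Cdh15 (1.5, adjusted p = 0.000114), Myf5 (0.96, adjusted p = 7.64e-05), Des (0.59, adjusted p = 0.00535), Pax7 (0.49, adjusted p = 0.0137) and Itga7 (0.44, adjusted p = 0.00184, all edgeR). The effect of siKEAP1 was also higher in CCNF-depleted cells for the fibroblast marker Dcn (0.68, adjusted p = 0.0252) and for the targeted genes Keap1 (0.98, adjusted p = 6.99e-05) and Ccnf (0.71, adjusted p = 0.000442, all edgeR). Pdgfra, the other fibroblast marker that passed the filter, was at 0.15 (SE 0.202) and did not pass the threshold. The part of these shifts in the results was not tested. The differences of the markers and targeted genes contain the same comparison, and their adjusted p-values are also a description.

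Cyp1a1 had a difference of the same kind of -4.97: siCCNF was higher than siCONTROL in each library, and siKEAP1/siCCNF was lower than siKEAP1 in each library. This difference was not tested, because it contains the comparison that chose the genes.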

How the results depend on the processing

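Calls of the 6 genes against siCONTROL held in every alternative that could be fitted for them. The filter of at least 10 counts in every library removed Cyp1a1, so no value exists for it there. In siKEAP1/siCCNF against siCCNF, 785 genes were called, against 1257 with DESeq2, 1324 without the gene length trend, 516 with the compared libraries only and 2186 without both libraries that follow gene length most. Leaving out 1 library gave 363 (without siCCNF replicate 1) to 1404 (without siCONTROL replicate 1), with 484 and 367 without siCCNF replicates 2 and 3 and 402 without siKEAP1/siCCNF replicate 2. Of the 6 genes, 1 was called there, against 2 with DESeq2, 2 without the filter and 3 without both of those libraries, and 0 to 2 on leaving out 1 library. The siKEAP1 difference of Ahrr between CCNF-depleted and control cells turned from -0.22 to 0.0276 without both libraries. Causes were not tested. With limma on log2(FPKM + 1), the pseudocount shrinks low genes: Cyp1a1 after siKEAP1 was at 3.79. After removal of the group means, correlations of same-numbered libraries of unlike groups ran from -0.268 to 0.204, with 4 of 18 over 0.1. For libraries with unlike numbers they ran from -0.276 to 0.39, with 5 of 36 over 0.1. These ranges overlap, so they do not decide whether replicate numbers pair the samples. With the replicate block, the call of Arnt in siKEAP1/siCCNF against siCCNF was lost (-0.31, adjusted p = 0.0746, edgeR), and the count of all genes called there was 642. Among the listed genes, the block also left 0 in place of 1 coregulator higher in siCCNF, 1 AHR-induced gene (Nfe2l2) lower in siKEAP1/siCCNF against siCCNF and 1 myoblast marker higher in siKEAP1/siCCNF against siKEAP1. Counts of called genes within the lists were small and moved by over 1.5 times in some alternatives. Of 10 coregulators, 0 to 3 were higher and 0 to 5 lower in siCCNF, and 1 to 5 lower in siKEAP1/siCCNF against siKEAP1. Of the tryptophan enzymes, 1 was lower in the latter comparison in 7 alternatives, against 0. Depth limits genes with few counts, such as Cyp1a2 and Npas3.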
